A study of Mus musculus with 24 samples.

Results

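The acyl-CoA thioesterase family was followed in the gastrocnemius muscle of mice given an obesogenic diet with or without 2 additions. Members were Acot1, Acot2, Acot3, Acot4, Acot7, Acot8, Acot9, Acot10 and Acot11, found on the arrays by the accession or gene name of each probe. These 9 genes were represented by 11 of the 41174 different probes, among 22244 symbols on the array, and 7 of them, 1 for each of 7 genes, gave enough signal for a comparison. The animals were male C57BL/6N mice, 3 months old at the start, and for 8 weeks all of them ate a high-fat diet whose lipids made up 35% of its weight. They were then fasted for 10 hours in the light phase and offered Chow during the following night. The control group (cHF) had this diet alone, the cHF+F group had 15% of its lipids replaced by a concentrate of n-3 LC-PUFA (long-chain polyunsaturated fatty acids; 46% DHA and 14% EPA), and the cHF+ROSI group had 10 mg rosiglitazone per kg of diet, an activator of the nuclear receptor PPARγ. Each group held 8 mice with 1 array each. The muscle was taken after Chow and not on the high-fat diets themselves, and no group had eaten Chow throughout.

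Acyl-CoA thioesterases split a fatty acyl-CoA into the free fatty acid and coenzyme A, and so oppose the acyl-CoA synthetases that activate fatty acids. The members fall into a pair of protein families without common ancestry. Acot1 (cytosol), Acot2 (mitochondria), Acot3 and Acot4 (peroxisomes) are type I enzymes, which arose by duplication and lie side by side on mouse chromosome 12. Acot7 (cytosol, abundant in brain), Acot8 (peroxisomes), Acot9 and Acot10 (mitochondria) and Acot11 (known from brown fat) are type II enzymes of the hotdog fold. In liver, Acot1 is a well-known target of PPARα, a receptor that fatty acids activate.

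Acot1, Acot2 and Acot4 are neighbours on chromosome 12, and their promoters are shown first. The RefSeq table (build GRCm38.p6) held promoters for all 9 members. The 250 bases before the start of Acot1, Acot2 and Acot4 follow, 5′ to 3′ on the strand of the gene. The capitals mark the window nearest, on either strand, to the direct repeat AGGTCA, any 1 base, AGGTCA, which PPAR and its partner receptor bind.
Acot1, chr12:84009252-84009501, plus strand: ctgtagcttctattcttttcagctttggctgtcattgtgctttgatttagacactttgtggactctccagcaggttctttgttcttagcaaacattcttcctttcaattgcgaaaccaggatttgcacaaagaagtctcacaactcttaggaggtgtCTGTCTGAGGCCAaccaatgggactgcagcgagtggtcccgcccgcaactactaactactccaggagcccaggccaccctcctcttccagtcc
Acot2, chr12:83987611-83987860, plus strand: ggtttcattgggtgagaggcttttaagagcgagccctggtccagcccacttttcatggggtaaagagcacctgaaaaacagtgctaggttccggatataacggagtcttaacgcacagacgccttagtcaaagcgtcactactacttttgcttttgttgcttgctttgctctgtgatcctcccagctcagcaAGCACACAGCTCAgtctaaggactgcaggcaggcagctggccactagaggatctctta
Acot4, chr12:84038129-84038378, plus strand: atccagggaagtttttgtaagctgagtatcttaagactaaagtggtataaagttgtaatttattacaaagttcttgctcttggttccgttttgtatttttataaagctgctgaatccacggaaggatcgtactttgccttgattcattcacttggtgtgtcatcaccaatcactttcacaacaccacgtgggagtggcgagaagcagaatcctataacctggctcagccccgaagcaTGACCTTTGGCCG
Of the 12 letters of the repeat (the spacer not counted), the window matched 8 in Acot1, 9 in Acot2 and 10 in Acot4. A window with at most 4 mismatches was found in 74.5% of all 32851 promoters of the table, 1 with at most 3 in 21.3% and 1 with at most 2 in 3.24%. The half-site AGGTCA was present, on either strand, in the promoter of Acot4 only among the 9 members, and in 14% of all promoters. Promoters of the chromosome 12 neighbours were 57.6% to 61.2% identical in pairwise alignments (median 59.4%, 6 pairs), a range that lay within the 54% to 62% of the 30 other pairs of members. The windows are matches of letters, not binding sites, and the data hold no measurement of binding.

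For each mouse, the log2 ratio of its Cy5 signal to the Cy3 signal of a pool of muscle RNA was taken as the expression value, hence 0 means the level of the pool. The pool was the same on all arrays and also contained RNA of mice on a higher dose of rosiglitazone, which are not analysed here. No dyes were swapped. Every diet was present once on each of 8 slides and always at the same place, so a place effect and a diet effect cannot be told apart. The share of spots well above background was 30.4% to 61.3% in Cy5 on 23 arrays and 91.1% on the array of cHF+ROSI mouse 4. All 10 muscle fibre markers were well above background in Cy5 on every array. Since whole muscle was used, fewer cells of a type and less RNA per cell cannot be told apart.

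The 4 type I genes differed in whether they could be measured. On build mm8 (NCBI build 36), their probes lay in the order Acot2 (chr12:84882869-84882928), Acot1 (chr12:84907250-84907309), Acot4 (chr12:84932960-84933019 and chr12:84933619-84933678) and Acot3 (chr12:84948386-84948445). The Acot1 probe was well above background in Cy5 on all 24 arrays, with a mean signal over background of 9.17. The Acot2 probe was so on 23 arrays, with 6.59. By contrast, the Acot3 probe was well above background on 2 arrays and the Acot4 probes on 5 and 1, with a mean signal over background of 1.52, 1.55 and 1.44. Acot3 and Acot4 thus have no fold change here. Their log2 ratios lay between -0.20 and 0.31 in all 24 mice, and for the Acot4 probes the difference between cHF+F and cHF had opposite signs. Of the type II genes, Acot7, Acot8, Acot9 and Acot10 were well above background on all 24 arrays and 1 probe of Acot11 (chr4:106242716-106242775) on 23, whereas the other Acot11 probe (chr4:106244615-106244674) was so on 2 arrays. None of the 11 probes was saturated or had a quality flag.

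The first comparison asked what n-3 LC-PUFA did to the family. Acot1 was the member with the largest difference: its log2 ratio was 0.22 ± 0.27 (SD, n = 8) in cHF and -0.32 ± 0.30 (SD, n = 8) in cHF+F. The cHF mice ranged from -0.17 over a median of 0.22 to 0.55. The cHF+F mice ranged from -0.66 over a median of -0.38 to 0.26, and 7 of the 8 lay below the cHF mean. The groups overlapped, because cHF+F mouse 6, at 0.26, was higher than most controls. The log2 change was -0.55 (SE 0.15, 95% interval -0.85 to -0.25), a level 0.683 times that of cHF. With limma, the unadjusted p was 0.000922, rank 39 among 15958 probes, and the adjusted p was 0.369. Acot1 therefore did not pass the test over all probes, and since the study chose this gene from the arrays analysed here, its place among the members is no independent evidence.

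Within slides, cHF+F was lower than cHF for Acot1 on 7 of the 8, by up to -1.12 on slide 8. On slide 6 the difference was 0.029. Cy3, the pool, differed by -0.0052 at the Acot1 spot (limma, unadjusted p = 0.956), and Cy5 on its own gave a log2 change of -0.63. The signals as processed by Feature Extraction gave a larger change of -0.87.

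**Figure D1:**
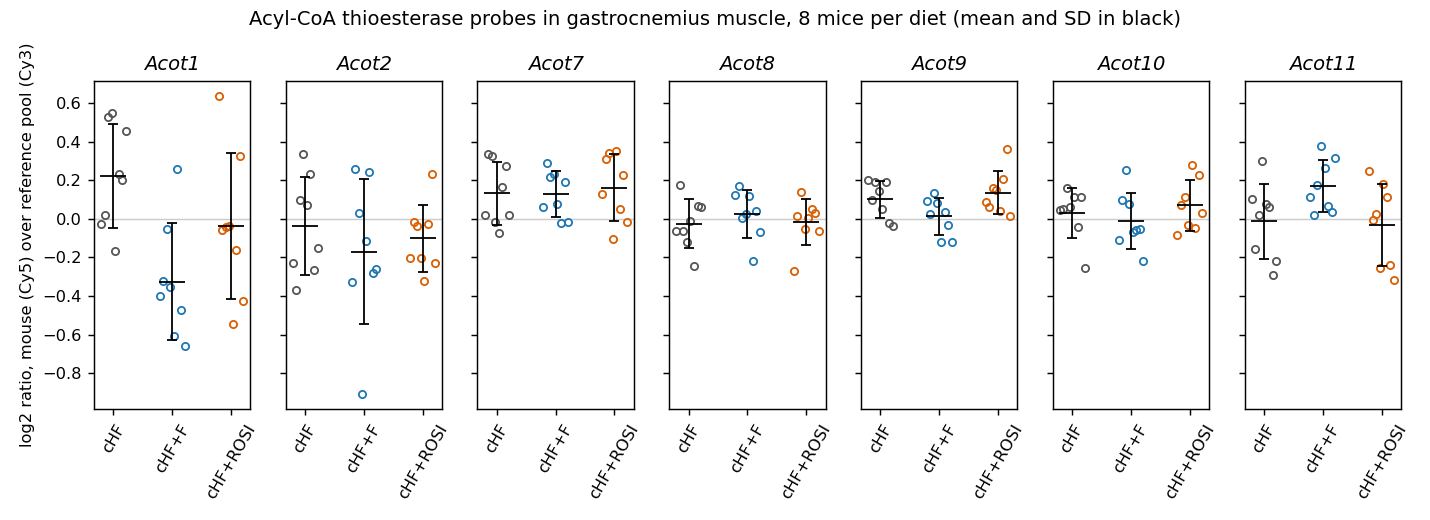
Log2 ratio of mouse over reference pool (vertical axis) for the 7 thioesterase probes bright enough to be compared; each circle is 1 mouse, 8 per diet, and the black bar and whiskers are the mean and SD. In the Acot1 panel 7 of the 8 cHF+F mice lie below the cHF mean of 0.22. In the Acot9 panel 7 also lie below the cHF mean, and in the Acot11 panel all 8 lie above it. The 3 diets overlap in every panel.

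Acot2, the mitochondrial neighbour that is close to Acot1 in sequence, differed less between the groups. It was -0.035 ± 0.25 (SD, n = 8) in cHF, from -0.37 over -0.041 to 0.34, and -0.17 ± 0.38 (SD, n = 8) in cHF+F, from -0.91 over -0.19 to 0.26. The groups overlapped nearly completely. The log2 change was -0.13 (SE 0.13, 95% interval -0.40 to 0.13, unadjusted p = 0.307, adjusted p = 0.938 with limma), and no alternative gave it an unadjusted p under 0.05. Its size depended on the mice included. The change was -0.029 without cHF+F mouse 4, the lowest of all, -0.082 without cHF mouse 4, -0.20 without cHF+F mouse 2 and -0.31 on slides 4 to 8 (limma, unadjusted p = 0.0868).

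To compare the paralogues directly, the log2 ratio of each other member was subtracted from that of Acot1 in every mouse. In cHF+F against cHF, this difference was -0.41 for Acot2 (SE 0.16, in the same direction in 7 of 8 mice), with a two-sided exact permutation p of 0.0241, or 0.0482 after Benjamini-Hochberg adjustment over the 12 tests of this kind. This permutation takes no account of the slide. Within slides, the difference between Acot1 and Acot2 ran from -1.01 to 0.34 and was negative on 6 of 8, and an exact sign-flip test over the slides, added after the data were seen, gave p = 0.0625 (adjusted p = 0.125). The response of Acot1 was thus not separated from that of Acot2 once slides were paired. Against Acot9 it was -0.46, against Acot10 -0.51, against Acot7 -0.55, against Acot8 -0.60 and against Acot11 -0.73, each with an adjusted exact permutation p of 0.019. For these 5 members the test within slides gave an adjusted p of 0.0375, with a negative difference on 7 of 8 slides. All these tests used the same Acot1 values, so they are not separate results. The study chose Acot1 from these arrays, so they are also no independent evidence that it responds differently. In cHF+ROSI against cHF, none of the 6 differences passed, and the adjusted exact permutation p lay between 0.143 and 0.223, or between 0.206 and 0.266 within slides. Because probe sequences were not in the data used here, cross-hybridisation between Acot1 and Acot2, or between Acot9 and Acot10, which are also near copies, was not tested. A probe that read both genes would show a mixture of their changes.

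Across the 24 mice, Acot1 and Acot2 had a Pearson r of 0.447 (permutation p = 0.0277) and a Spearman rho of 0.451 (permutation p = 0.0283). Within the groups r was 0.452 in cHF, 0.455 in cHF+F and 0.438 in cHF+ROSI, and with the 2 mice farthest from the median of Acot1 left out it was 0.508. For Acot9 and Acot10, r was 0.458 (permutation p = 0.0251) and rho 0.352 (permutation p = 0.0914), and r was 0.335 without the 2 farthest mice. Acot1 and Acot9 gave r of 0.494 (permutation p = 0.0135) and rho of 0.485 (permutation p = 0.017), but with group and slide means removed r was -0.022. Of 7 such relations, 4 had an adjusted p of 0.0485 by r, the remaining one being an r of -0.452 (rho -0.301) between Acot1 and Acot8, and no rho reached an adjusted p under 0.0991. These permutations shuffled all 24 arrays and took no account of diet or slide. With group and slide means removed, r was 0.488 for Acot1 and Acot2, 0.491 for Acot9 and Acot10 and -0.464 for Acot1 and Acot8.

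**Figure D2:**
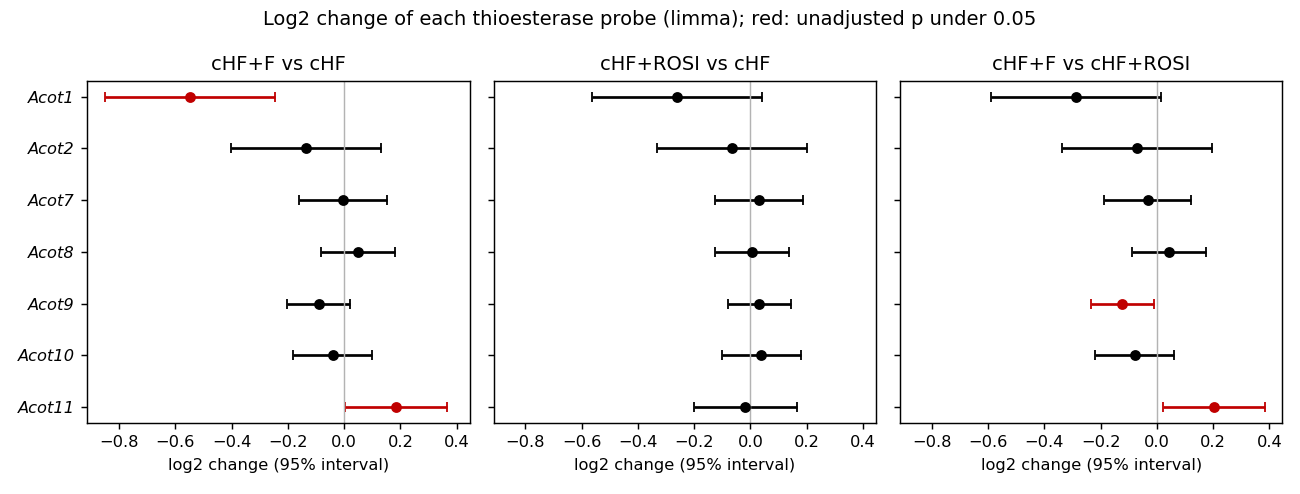
Log2 change of each thioesterase probe (horizontal axis) with its 95% interval from limma, in 3 comparisons of 8 mice against 8. Red marks an unadjusted p under 0.05, which holds for Acot1 and Acot11 in cHF+F against cHF, for no probe in cHF+ROSI against cHF, and for Acot9 and Acot11 in cHF+F against cHF+ROSI.

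Among the type II enzymes, Acot11 was higher in cHF+F than in cHF. Its brighter probe read -0.013 ± 0.20 (SD, n = 8) in cHF, from -0.29 over 0.041 to 0.30. In cHF+F it read 0.17 ± 0.14 (SD, n = 8), from 0.018 over 0.14 to 0.38. All 8 cHF+F mice lay above the cHF mean, and cHF+F was higher than cHF on all 8 slides, yet the groups overlapped. The log2 change was 0.18 (SE 0.089, 95% interval 0.0023 to 0.37, unadjusted p = 0.0474, adjusted p = 0.719 with limma). With 1 mouse left out at a time, the unadjusted p was under 0.05 in 14 of 24 fits. The change was 0.23 with an unadjusted p of 0.178 under median centring in place of loess, and 0.21 with 0.262 on Cy5 alone. The unadjusted p was under 0.05 in 4 of 10 other ways of processing, the smallest being 0.0287 (limma) with slide as a replicate block. With no filter on dim probes, the dimmer Acot11 probe changed by -0.018 (limma, unadjusted p = 0.733), so the signs of the probes were opposite.

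The remaining members differed little. Acot9, a mitochondrial enzyme, changed by -0.090 (SE 0.055, unadjusted p = 0.112 with limma) and was lower in cHF+F on all 8 slides, by -0.012 to -0.17. Its near copy Acot10 changed by -0.041 (SE 0.068), cytosolic Acot7 by -0.0031 (SE 0.076) and peroxisomal Acot8 by 0.050 (SE 0.064). The 95% interval of each of these 4 changes stayed between -0.20 and 0.18. In all, 2 of the 7 probes had an unadjusted p under 0.05, Acot1 lower and Acot11 higher, where 6.86% of all 15958 probes did so (4.00% lower and 2.85% higher). No probe of any gene passed an adjusted p of 0.05 (0%), the smallest being 0.0774. The median change was -0.041 over the 7 members and 0.00063 over all probes.

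The second comparison asked the same of rosiglitazone. In cHF+ROSI, Acot1 read -0.038 ± 0.38 (SD, n = 8), from -0.55 over -0.049 to 0.64, the widest spread of the 3 diets. Mouse 1, at 0.64, was above every control, while 6 of the 8 lay below the cHF mean. The log2 change was -0.26 (SE 0.15, 95% interval -0.56 to 0.040, unadjusted p = 0.0859, adjusted p = 0.996 with limma), and 6 of 8 slides had the lower value in cHF+ROSI. On Cy5 alone the change was -0.54 (unadjusted p = 0.0179), while Cy3 at this spot differed by -0.096. It was -0.60 in the signals processed by Feature Extraction, -0.42 on slides 4 to 8 and -0.41 with median centring. With a loess span of 0.1 it was -0.25. Without mouse 1 it was -0.36 (limma, unadjusted p = 0.0138), and without cHF+ROSI mouse 5 it was -0.19 (limma, unadjusted p = 0.202). The unadjusted p was under 0.05 in 3 of the 24 fits without 1 mouse and in 5 of 10 other ways of processing. The changes of the other 6 members lay between -0.065 and 0.038, and their 95% intervals between -0.33 and 0.20. The largest of these differences was that of Acot2, which read -0.10 ± 0.17 (SD, n = 8) in cHF+ROSI. No member had an unadjusted p under 0.05, where 4.70% of all probes did. The median was 0.0059 over the members and -0.0086 over all probes.

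**Figure D3:**
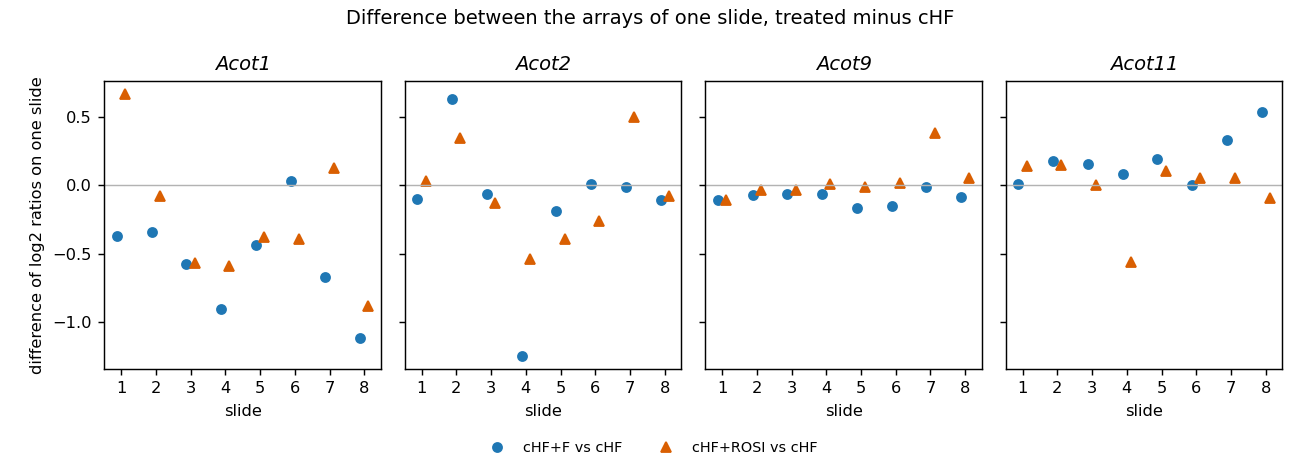
Difference of log2 ratios between 2 arrays of the same slide (vertical axis) for 4 members over the 8 slides (horizontal axis); circles are cHF+F minus cHF and triangles cHF+ROSI minus cHF. For Acot1, 7 circles and 6 triangles lie below 0, for Acot9 all 8 circles lie just below 0, and for Acot11 all 8 circles lie above 0.

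The third comparison set the additions against each other. Acot1 was lower in cHF+F than in cHF+ROSI by a log2 change of -0.29 (SE 0.15, 95% interval -0.59 to 0.015, unadjusted p = 0.0618, adjusted p = 0.762 with limma), and on 7 of 8 slides. With slide as a replicate block the unadjusted p was 0.0472 and the adjusted p 0.375 (limma), and 2094 of all 15958 probes then had an unadjusted p under 0.05. The change was -0.083 on Cy5 alone and -0.19 without cHF+ROSI mouse 1. Acot9 read 0.012 ± 0.094 (SD, n = 8) in cHF+F, from -0.12 over 0.031 to 0.13, and 0.13 ± 0.11 (SD, n = 8) in cHF+ROSI, from 0.015 over 0.12 to 0.36. Its log2 change was -0.12 (SE 0.055, unadjusted p = 0.0348, adjusted p = 0.740 with limma), and all 8 cHF+F mice lay below the cHF+ROSI mean. Acot11 read -0.032 ± 0.21 (SD, n = 8) in cHF+ROSI, from -0.32 over 0.0074 to 0.25. Its log2 change between cHF+F and cHF+ROSI was 0.20 (SE 0.089, unadjusted p = 0.0305, adjusted p = 0.738 with limma), on 6 of 8 slides. These 2 members had an unadjusted p under 0.05, where 6.67% of all probes did (2.65% lower and 4.02% higher). Acot2, Acot7, Acot8 and Acot10 changed by -0.070, -0.033, 0.044 and -0.079.

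Ordered by mean log2 ratio, Acot1 ran cHF, cHF+ROSI, cHF+F, and neither pair of neighbours in this order had an unadjusted p under 0.05, although cHF+ROSI and cHF+F did with slide as a replicate block (limma, unadjusted p = 0.0472). Acot9 ran cHF+ROSI, cHF, cHF+F, and Acot11 ran cHF+F, cHF, cHF+ROSI. Both comparisons with cHF used the same 8 control arrays, so their values are given side by side only.

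Genes around the thioesterases were read from lists of acyl-CoA metabolism. The list of acyl-CoA and thioester hydrolases outside the members had 7 tested genes, among them Mlycd, which decarboxylates malonyl-CoA and is no hydrolase. Of the 6 hydrolases, 4 were lower in cHF+F than in cHF, where 49.6% of all probes were, and the median change was -0.040. None of the 6 had an unadjusted p under 0.05, where 6.86% of all probes did. Mlycd changed by -0.26 (SE 0.11, unadjusted p = 0.0244, adjusted p = 0.644 with limma). The brighter Acot6 probe, a further type I gene beyond Acot3 on chromosome 12 (chr12:85000749-85000808, mm8), changed by -0.10 (unadjusted p = 0.0943), and by -0.14 in cHF+ROSI (unadjusted p = 0.0235). The dimmer Acot6 probe (chr12:84991511-84991570), well above background on 14 arrays, changed by -0.19 in cHF+F (unadjusted p = 0.576) and by 0.39 in cHF+ROSI (unadjusted p = 0.261), so the 2 probes had opposite signs in cHF+ROSI. Acot13, a small hotdog-fold thioesterase, changed by -0.0078. Acyl-CoA synthetases, which run the opposite reaction, had a median change of -0.021. None of 12 had an unadjusted p under 0.05, against 6.86% of all probes. Acsl1, the main long-chain synthetase of muscle, changed by -0.11 (unadjusted p = 0.122) and Acss1, which activates acetate in mitochondria, by -0.21 (unadjusted p = 0.160). Acsl6, with the smallest p of this list, and Acsl4 were higher, at 0.15 (limma, unadjusted p = 0.0891) and 0.10 (limma, unadjusted p = 0.188).

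Of 12 genes of CoA synthesis and turnover, 8 were lower in cHF+F, with a median change of -0.060. Nudt7, a peroxisomal hydrolase of CoA and acyl-CoA, changed by -0.29 (SE 0.087, unadjusted p = 0.00258, adjusted p = 0.421 with limma). Dbi, the acyl-CoA binding protein, changed by -0.13 (unadjusted p = 0.0528). Among these lists of acyl-CoA metabolism the median lay farthest from 0 in PPAR-responsive genes of fatty acid oxidation. There, 20 of 21 were lower in cHF+F, 5 of them with an unadjusted p under 0.05, and the median was -0.18. Of all 15958 probes, 49.6% were lower in cHF+F and 4.00% were lower with an unadjusted p under 0.05. Examples are Pdk4, which blocks the entry of pyruvate into the TCA cycle, at -1.09 (SE 0.32), the lipid droplet protein Plin5 at -0.51 (SE 0.15), Cpt2 of the carnitine shuttle at -0.24 (SE 0.088) and Etfdh, which passes electrons from fatty acid oxidation to the respiratory chain, at -0.20 (SE 0.085), with unadjusted p-values of 0.00187, 0.00278, 0.0125 and 0.0239. In cHF+ROSI, 20 of the 21 were lower too, 9 with an unadjusted p under 0.05, with a median of -0.19 (of all probes, 54.7% were lower and 3.01% lower with an unadjusted p under 0.05), and the same 4 genes changed by -0.87, -0.19, -0.28 and -0.18. None of these genes passed the test over all probes, and the list was drawn up with results of these arrays known.

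**Figure D4:**
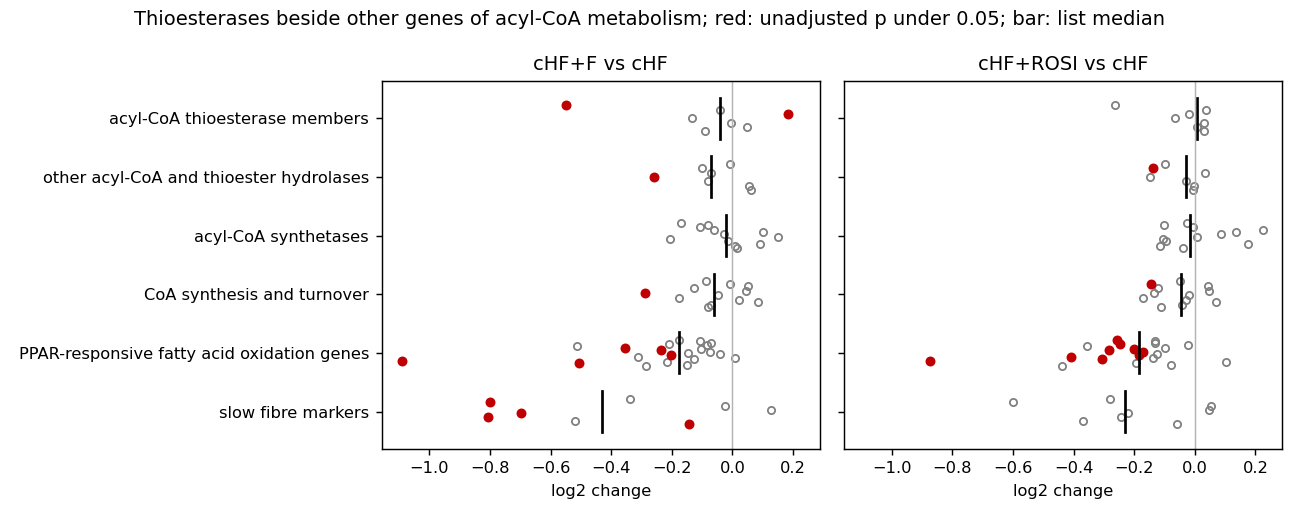
Log2 change (horizontal axis) of every tested gene in 6 lists, in cHF+F against cHF (left) and cHF+ROSI against cHF (right); each point is 1 gene, red points have an unadjusted p under 0.05, and black bars are list medians. Acot1, at -0.55 on the left, lies farthest from 0 among the members, and the medians of the PPAR-responsive list lie at -0.18 and -0.19. Those of the slow fibre markers lie at -0.43 and -0.23.

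Slow fibre markers were ordered by diet as Acot1 was. Their mean log2 ratio was 0.11 in cHF (from -0.30 to 0.65), -0.29 in cHF+F (from -1.04 to 0.40) and -0.097 in cHF+ROSI (from -1.14 to 0.57). Of the 8 markers, 7 were lower in cHF+F (median -0.43) and 4 were lower with an unadjusted p under 0.05, where these shares were 49.6% and 4.00% of all probes. Examples are Tnni1, the slow isoform of troponin I, at -0.81 and Myh7, the slow myosin heavy chain, at -0.80. In cHF+ROSI 6 of the 8 were lower (median -0.23), none with an unadjusted p under 0.05. Their part in the change of Acot1 was not tested. All 6 macrophage markers were lower in cHF+F (median -0.14), 1 of them with an unadjusted p under 0.05. Of 9 adipocyte markers, 7 were lower (median -0.067), none with an unadjusted p under 0.05. In cHF+ROSI, all 6 macrophage markers (median -0.066) and all 10 muscle fibre markers (median -0.17) were lower, where 54.7% of all probes were, none with an unadjusted p under 0.05, while 4 of 9 adipocyte markers were lower (median 0.010). Liver markers were higher in 7 of 8 genes in both treated groups, with medians of 0.31 in cHF+F and 0.66 in cHF+ROSI. Of all probes, 49.6% were lower in cHF+F and 54.7% in cHF+ROSI. None of these liver markers had an unadjusted p under 0.05 in cHF+F. In cHF+ROSI, 3 of them were higher with an unadjusted p under 0.05 (1.69% of all probes), and 1, the haptoglobin gene Hp, was lower at -0.76 (unadjusted p = 0.0415), as were 3.01% of all probes. Of 5 nerve markers, 3 were lower in cHF+F (median -0.022) and all 5 were higher in cHF+ROSI (median 0.33), none with an unadjusted p under 0.05 in either group. Their part in the results was likewise not tested.

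The genes whose log2 ratio followed that of Acot1 most closely over the 24 mice, among 10614 other genes, were Plin5 (Pearson r = 0.815), Mlycd (0.808), Lmod2 (0.794), Nudt7 (0.779) and Rnf31 (0.773). With the group means removed, r was 0.728, 0.759, 0.768, 0.664 and 0.643, so the likeness was also present among mice of the same diet. Those nearest to Acot11 were Efr3b (0.769), Trrap (0.765), Ahdc1 (0.744), Runx1t1 (0.738) and Rcor1 (0.703). The points share slides and the reference pool, and these genes were chosen for the likeness, so the values describe these arrays only.

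**Figure D5:**
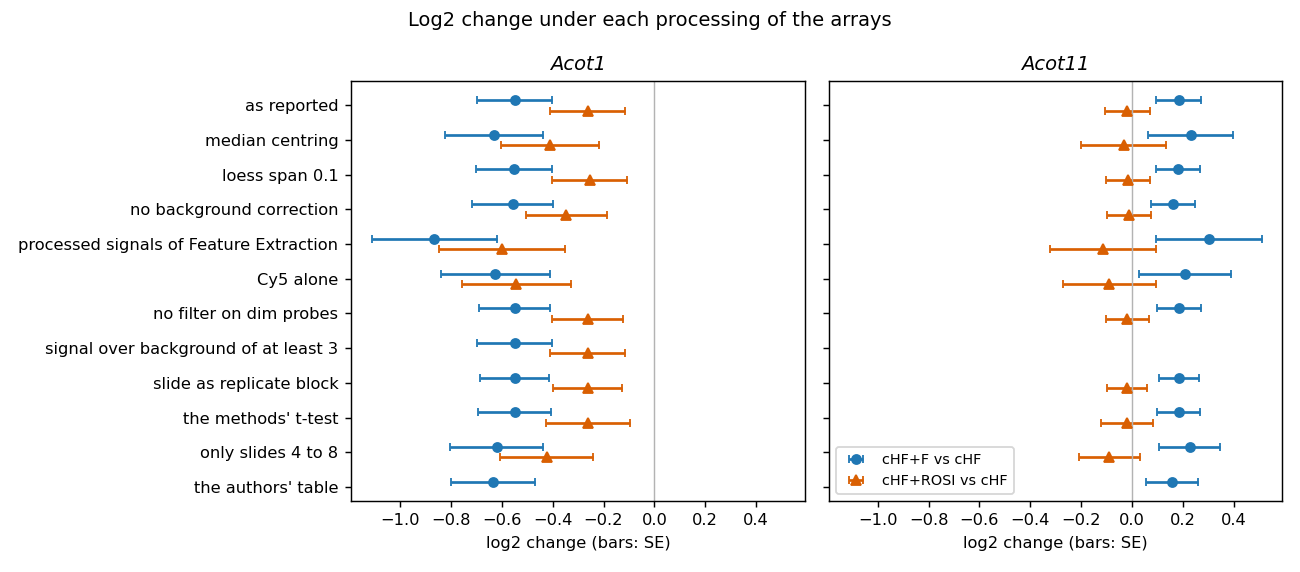
Log2 change with its SE (horizontal axis) of Acot1 and of the brighter Acot11 probe under each way of processing the arrays (vertical axis); circles are cHF+F against cHF and triangles cHF+ROSI against cHF. For Acot1 the circles lie between -0.87 and -0.55, and the triangles run from -0.60 to -0.25. For Acot11 the circles lie between 0.16 and 0.30, and the stricter filter on dim probes removed its probe.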

How the data were processed

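RNA of single mice was labelled with Cy5 and hybridised on two-colour arrays against a Cy3 pool. Per the file headers, the deposited intensity values of spot and local background had been quantified by Feature Extraction 10.5.1.1 (the labels name 10.5.5.1). The authors also deposited a table of log2 values normalized between arrays, in which 8 columns of a combined diet matched no group and were not used.

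The background was removed from median signals by normexp (offset 50), followed by loess within arrays (span 0.3). Flagged spots were left out, spots of a probe averaged, and probes kept with at least 4 unflagged arrays per group and a mean signal over background of at least 2 in both channels (15958 probes). Groups were compared with limma 3.58.1 in R 4.3.3, in 1 model of 3 groups with Benjamini-Hochberg adjustment over all kept probes, after it had been tested on simulated data. The study's methods name a t-test and no block, and 2-sided tests were used. Acot1 was set against each other member by exact permutation over the 16 arrays and, added later, by exact sign flips over slides. Replicate numbers mark the slide. Deviations of arrays on 1 slide correlated at -0.11 to 0.64, over 0.1 in 18 of 24 pairs. Named genes were all member probes, the 5 genes most like Acot1 and like each member with an unadjusted p under 0.05 against cHF, and up to 4 genes per list with the smallest p. The number of arrays limits the precision. Members and lists were chosen with earlier results of these data known.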

Additional observations from a re-analysis of the deposited data

How the results depend on the processing

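The change of Acot1 in cHF+F against cHF kept its direction in all 11 other ways of processing and in all 24 fits without 1 mouse, each with an unadjusted p under 0.05 and none with an adjusted p under 0.05. Its adjusted p lay between 0.126, with slide as a replicate block, and 1.00, and without 1 mouse the change lay between -0.63 and -0.50. Some of these fits could not alter the change in cHF+F against cHF, which stayed at -0.55. They were no filter or a stricter filter on dim probes, the slide block, the t-test and leaving out a cHF+ROSI mouse. Their direction is therefore no added evidence. In cHF+ROSI against cHF, 5 of 10 ways gave Acot1 an unadjusted p under 0.05, and the change without 1 mouse lay between -0.36 and -0.19. In cHF+F against cHF+ROSI it lay between -0.37 and -0.19.

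Without 1 mouse, members with an unadjusted p under 0.05 numbered 1 to 2 in cHF+F against cHF, 0 to 1 in cHF+ROSI against cHF and 0 to 3 in cHF+F against cHF+ROSI. Probes called over the whole array numbered 0 to 2, 0 to 0 and 0 to 2. In cHF+F against cHF, 3 probes were called with no filter on dim probes and 6 with slide as a replicate block, none of them a member. Members with an unadjusted p under 0.05 there were 1 under median centring, no background correction, processed signals, Cy5 alone, the stricter filter, slides 4 to 8 and the authors' table. In cHF+ROSI against cHF there was 1 under median centring, no background correction, processed signals, Cy5 alone and slides 4 to 8. In cHF+F against cHF+ROSI there were 0 under median centring, processed signals and Cy5 alone, 1 with no background correction or the stricter filter, and 3 with slide as a replicate block, Acot1 (limma, unadjusted p = 0.0472) joining Acot9 (0.0153) and Acot11 (0.0175). Under that block 2094 of all 15958 probes had an unadjusted p under 0.05, against 1065 without it. In cHF+F against cHF, 87 of all probes did so under median centring, 220 on Cy5 alone and 1094 as reported. In cHF+ROSI against cHF, 82 did so under median centring, 1450 on slides 4 to 8 and 750 as reported. With slides paired by an exact sign-flip test, chosen after seeing the data, 5 of the 6 members differed from Acot1 in cHF+F against cHF at an adjusted p under 0.05, Acot2 no longer, and 0 in cHF+ROSI against cHF. These tests share the values of Acot1, a gene chosen from these arrays, and are not separate results.

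The sign of Acot1 did not change in these fits. It changed for each other member in at least 1 fit. In cHF+F against cHF, Acot7 was 0.0052 with a loess span of 0.1, 0.0048 with no background correction, 0.018 on slides 4 to 8 and 0.013 in the authors' table. Acot8 was -0.0097 under median centring and -0.042 on Cy5 alone, and Acot2 was 0.0037 on Cy5 alone. In cHF+ROSI against cHF, Acot8 and Acot10 were -0.063 and -0.013 under median centring. Acot7, Acot8 and Acot9 were -0.0050, -0.011 and -0.060 with processed signals. On Cy5 alone Acot2, Acot7, Acot8 and Acot10 were 0.053, -0.18, -0.12 and -0.12. In cHF+F against cHF+ROSI, Acot2 was 0.091 with processed signals, Acot7 0.059 on Cy5 alone and Acot8 -0.014 on slides 4 to 8. Without 1 mouse, Acot7 ranged from -0.032 to 0.026 in cHF+F against cHF. In cHF+ROSI against cHF, Acot8 ranged from -0.025 to 0.042, Acot9 from -0.00027 to 0.049, Acot10 from -0.0027 to 0.060 and Acot11 from -0.058 to 0.027. Acot2 ranged from -0.13 to 0.036 in cHF+F against cHF+ROSI. The cause of these changes was not tested. Acot3 and Acot4 were too dim on these arrays for a level.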
